A study of Mus musculus with 8 samples.

Results

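The mRNAs of the enzymes that activate ubiquitin and the ubiquitin-like proteins were followed in mouse muscle in which one of them, *Uba1*, was targeted by siRNAs. The genes were taken by name: *Uba1*, *Uba2*, *Uba3*, *Uba6*, *Uba7*, *Sae1*, *Nae1*, *Atg7* and *Mocs3*, which are 9 of the 41709 genes in the expression table. All 9 were listed once and all 9 passed the filter on low values. Tibialis anterior (TA) muscles of male C57BL/6J mice aged 3 months were electroporated after hyaluronidase treatment. One leg of each mouse received a pool of siRNAs against *Uba1* and the contralateral leg a pool of non-targeting (NT) siRNAs. Muscles were collected on day 7, which gave 4 muscles with NT siRNAs and 4 with *Uba1* siRNAs. Equal replicate numbers mark the legs of 1 mouse. The titles give R for every NT muscle and L for every *Uba1* siRNA muscle, and the effect of the leg therefore cannot be told apart from that of the siRNAs. The muscles were not sorted, and a muscle without electroporation was not analysed here.

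An E1 enzyme uses ATP to form a thioester with the end of ubiquitin or of a ubiquitin-like protein, and then passes it to an E2 conjugating enzyme. UBA1 is the main E1 of ubiquitin, and UBA6 is a further ubiquitin E1 that also activates FAT10. UBA7 activates ISG15, the pair UBA2 and SAE1 activates SUMO, the pair UBA3 and NAE1 activates NEDD8, ATG7 serves the ATG8 family and ATG12 in autophagy, and MOCS3 serves URM1 and a molybdenum cofactor protein. In muscle, ubiquitin conjugation marks proteins for the proteasome, and autophagy removes organelles and protein aggregates.

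Both siRNA targeting and the assignment of reads depend on sequence, so the coding sequence of *Uba1* was compared with that of each other E1 gene (Ensembl canonical transcripts of GENCODE M39, GRCm39). The *Uba1* coding sequence has 3177 bases and holds 3159 overlapping runs of 19 bases, about the length over which an siRNA pairs with its target. Not 1 of these 19-base runs occurs in the coding sequence of any of the other 8 genes, and neither does any run of 100 bases. The parts of the mRNAs outside the coding sequence were not compared, and the siRNA sequences were not at hand. Targeting of the other genes by the siRNAs was thus not tested. The longest identical stretch is 18 bases with *Uba7*, 13 with *Uba6* and *Atg7*, 12 with *Uba2*, *Uba3* and *Sae1*, and 11 with *Nae1* and *Mocs3*. The stretches shared with *Uba7* and *Uba6* are shown because UBA7 and UBA6 are single-chain enzymes of the same build as UBA1. Capitals mark the identical bases, with 6 flanking bases on each side in lower case. The *Uba1* stretch shared with *Uba7* crosses an exon junction at chrX:20547107-20547360 (plus strand), and its partner in *Uba7* lies at chr9:107858155-107858416 (plus strand). The stretches shared with *Uba6* lie at chrX:20544447-20544459 (plus strand) and chr5:86300741-86300753 (minus strand).
Uba1, against Uba7: ttttgaGAAGGATGATGACAGCAAtttcca
Uba7: gtttgtGAAGGATGATGACAGCAActtcca
Uba1, against Uba6: gcccggGATGAATTTGAAGgccttt
Uba6: tttggtGATGAATTTGAAGtttcag

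*Uba1* has 1 close relative outside these 9 genes, its Y-linked paralog *Uba1y*. The longest stretch identical with *Uba1y* is 34 bases, at chrX:20545836-20545869 (plus strand) and chrY:832508-832541 (plus strand), and 71 of the 3159 runs of 19 bases (2.25%) occur in *Uba1y*. No run of 100 bases is shared. The stretch is shown because it is the longest that *Uba1* shares with any gene compared here.
Uba1, against Uba1y: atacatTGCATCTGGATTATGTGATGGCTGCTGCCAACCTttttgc
Uba1y: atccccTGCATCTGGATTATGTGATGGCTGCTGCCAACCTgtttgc

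Levels are given as TPM, transcript abundances that are scaled for gene length and to the same total in each library. The TPM move in steps of whole reads, and the number of reads behind each value was worked back from those steps. It came out whole, within 0.02 of a read, for 11529 of the 11530 genes tested, and the tested genes held 31335356 to 32695451 reads per muscle. Summed markers of muscle fibres lay between 115388 and 124259 TPM with NT siRNAs and between 93202 and 125673 TPM with *Uba1* siRNAs, with no marker of the 10 at 0. Of 6 fibroblast markers, 5 were higher with *Uba1* siRNAs in all 4 mice, where 32.2% of all genes tested were higher in all 4 mice. The sum of the 6 ranged from 396 to 749 TPM with NT siRNAs and from 536 to 930 TPM with *Uba1* siRNAs. Their part in the results was not tested. In bulk muscle, fewer cells of a type and less RNA per cell cannot be told apart.

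*Uba1*, the targeted gene (ENSMUSG00000001924.17, chrX:20524493-20549418, plus strand), was the most abundant of the 9 mRNAs with NT siRNAs. It stood at 60.6, 59.0, 63.6 and 59.1 TPM in NT replicates 1 to 4 and at 18.1, 6.77, 15.8 and 23.1 TPM in *Uba1* siRNA replicates 1 to 4. The groups did not overlap: the highest muscle with *Uba1* siRNAs was far below the lowest NT muscle. Relative to the contralateral leg, 29.8%, 11.5%, 24.8% and 39.1% of *Uba1* mRNA was left.

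The means were 60.6 ± 2.11 and 15.9 ± 6.83 TPM (SD, n = 4 muscles each), a level 3.80-fold lower. The exact permutation test (two-sided) gave p = 0.0286, the smallest that 4 muscles against 4 allow. In limma on log2(TPM + 1), fitted over all 11530 genes, the log2 fold change (log2FC) was -1.98 (SE 0.290, 95% interval -2.63 to -1.32) with an adjusted p of 0.0527. With the mouse as a replicate block the adjusted p from limma was 0.0278, and after median-ratio scaling it was 0.0333 with a log2FC of -2.09. On the recovered reads, limma with voom put the log2FC at -2.08 with 0.04996 as the adjusted p. Leaving out *Uba1* siRNA replicate 2 or 4 brought the adjusted p from limma to 0.00257 and 0.0206, and leaving out any of the other 6 muscles raised it to between 0.0838 and 0.230, the highest without NT replicate 2.

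The extent of the reduction varied between legs. The coefficient of variation of *Uba1* was 3.48% among NT muscles and 42.9% among muscles with *Uba1* siRNAs. The lowest *Uba1* value rested on 510 reads, for which counting alone gives a variation of 4.43%. The most reads were 4609, in NT replicate 1, with a counting variation of 1.47%. The muscle with the least *Uba1*, replicate 2, also had the lowest muscle fibre sum. *Uba1y* had 1 read, in NT replicate 3 (0.0165 TPM), and was listed at 0 in the other muscles.

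The treatment field of the labels gives UBA1 as the target in *Uba1* siRNA replicate 1, UBA2 in replicate 2, UBA3 in replicate 3 and UBA4 in replicate 4. The titles of all 4 libraries give UBA1. Each of these names belongs to a gene of the E1 family, UBA4 being an older name of MOCS3. The library with the UBA2 field held *Uba2* at 12.86 TPM against 13.02 TPM in the contralateral leg. *Uba3* in the library with the UBA3 field stood at 14.1 against 13.7 TPM, and *Mocs3* in the library with the UBA4 field at 1.80 against 1.71 TPM. The gene named in the field was thus at 98.8%, 103% and 105% of the contralateral level, while *Uba1* was lower by 60.9% to 88.5% in all 4 libraries. The 4 libraries were treated as 1 group, as their titles give it.

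**Figure D1:**
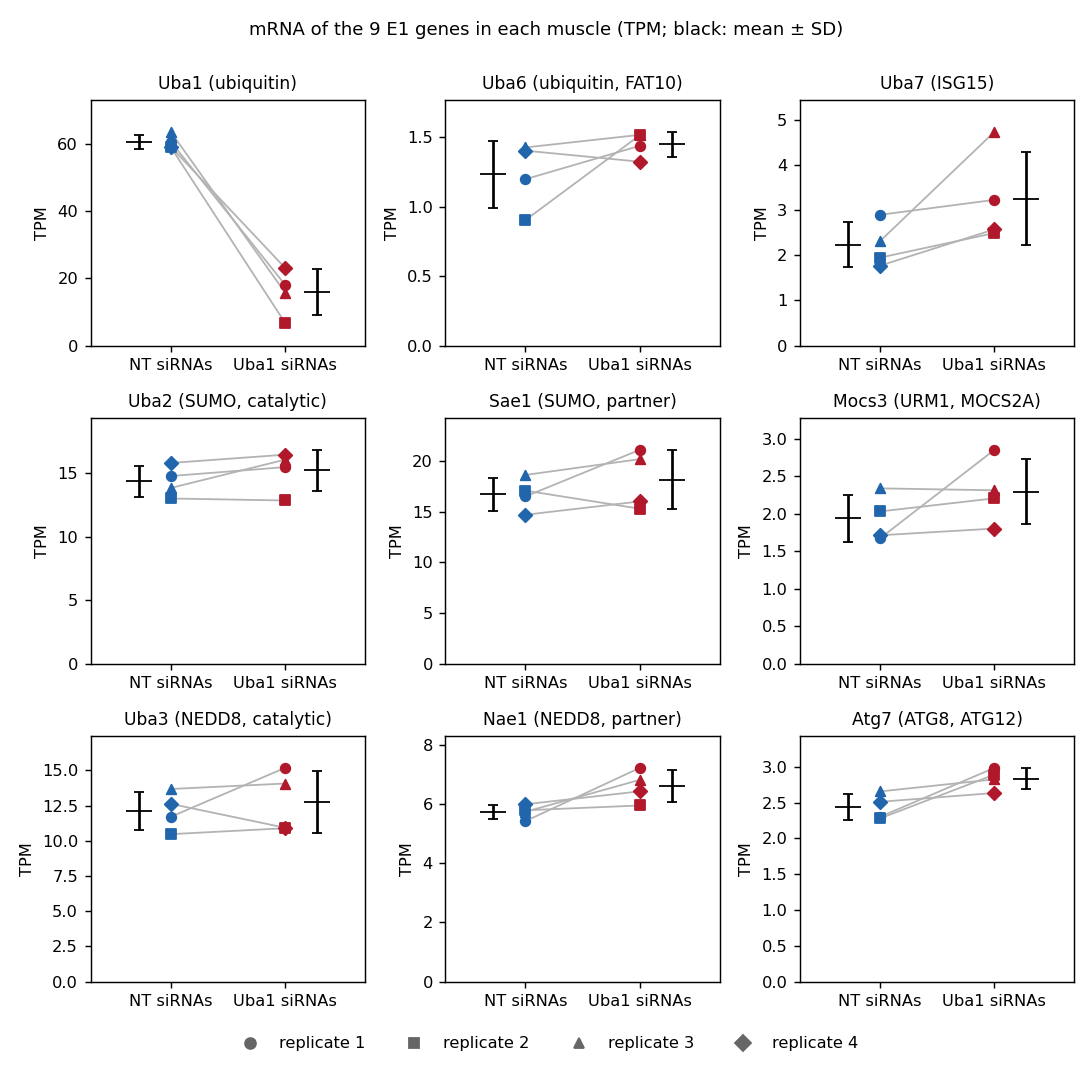
TPM (vertical axes, from 0) of the 9 E1 genes in each muscle, with NT siRNAs in blue and *Uba1* siRNAs in red, 1 symbol per replicate, lines joining the legs of a mouse and black bars for mean ± SD (n = 4). *Uba1* lies between 59.0 and 63.6 TPM with NT siRNAs and between 6.77 and 23.1 TPM with *Uba1* siRNAs, while the 2 groups overlap for each of the other 8 genes.

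*Uba6* (chr5:86256244-86320662, minus strand), the other ubiquitin E1, was the least abundant of the 9 mRNAs. Its level was 1.20, 0.902, 1.43 and 1.402 TPM with NT siRNAs and 1.44, 1.51, 1.52 and 1.32 TPM with *Uba1* siRNAs. The groups overlapped, and NT replicate 2 was lowest. The log2FC was 0.14 (SE 0.096, 95% interval -0.08 to 0.36, adjusted p = 0.438 from limma), and the interval holds levels from 0.947 to 1.28 of those with NT siRNAs on the scale of TPM + 1. Without NT replicate 2 the log2FC was 0.064, and after median-ratio scaling it was 0.071. With a pseudocount of 0.1 TPM it was 0.234, and with voom on the recovered reads 0.233. The values rested on 114 to 193 reads, with a counting variation of 7.20% to 9.37%. That is less than the variation between NT muscles, 19.7%, but more than that between muscles with *Uba1* siRNAs, 6.26%.

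*Uba1* and *Uba6* together give the mRNA for ubiquitin activation, and a share within a muscle is free of the scaling between muscles. *Uba1* made up 98.0% ± 0.358 of the summed TPM of both with NT siRNAs (SD, n = 4). With *Uba1* siRNAs it made up 92.6%, 81.7%, 91.2% and 94.6% in replicates 1 to 4, a mean of 90.05% ± 5.71. All muscles with *Uba1* siRNAs were below all NT muscles (exact permutation test, two-sided, p = 0.0286, or 0.114 adjusted over the 4 within-muscle tests of this section). Because the targeted *Uba1* itself did not overlap between groups and *Uba6* was low throughout, this outcome follows from the reduction of *Uba1*. It is not a separate result on *Uba6*. *Uba1* TPM exceeded *Uba6* TPM 50.7-fold on average with NT siRNAs and 11.2-fold with *Uba1* siRNAs, and *Uba1* thus remained the larger of both in each muscle, by 4.47-fold in *Uba1* siRNA replicate 2 and by 10.4-fold or more in the other 7. Without that replicate the difference in the mean share moved from -7.97 to -5.196 percentage points. The sum of both was 61.8 ± 2.25 TPM with NT siRNAs and 17.4 ± 6.76 TPM with *Uba1* siRNAs.

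The other 8 genes together did not differ between groups beyond the spread. Their summed level was 56.5, 53.5, 60.6 and 56.5 TPM with NT siRNAs and 69.5, 54.1, 68.6 and 58.2 TPM with *Uba1* siRNAs. The sum was higher with *Uba1* siRNAs in 4 of 4 mice, as were 32.2% of all genes tested when taken singly. The groups overlapped (difference of log2 sums 0.13, exact permutation test, two-sided, p = 0.257, or 0.343 adjusted). After median-ratio scaling the difference was 0.011 (exact permutation test, two-sided, p = 0.771), and without *Uba1* siRNA replicate 1, 2 or 3 it was 0.080, 0.20 and 0.087. With *Uba1* added, the sum of all 9 genes was 117 ± 4.92 TPM with NT siRNAs and 78.5 ± 12.04 TPM with *Uba1* siRNAs. *Uba1* took 51.6% ± 0.618 of it with NT siRNAs and 19.7% ± 7.11 with *Uba1* siRNAs (n = 4 each, SD).

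**Figure D2:**
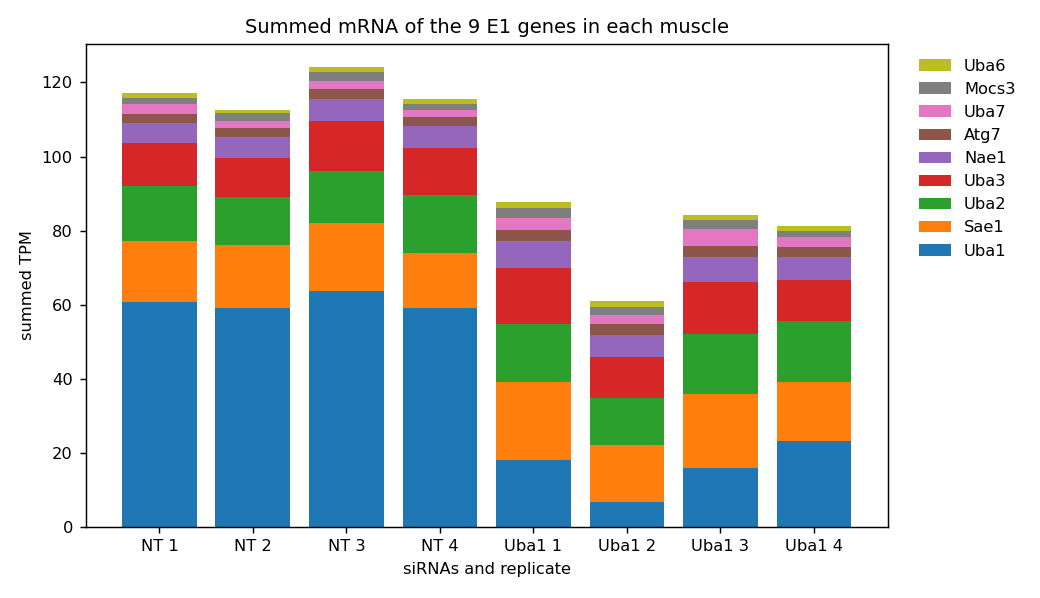
Summed TPM of the 9 E1 genes in each of the 8 muscles, stacked by gene, with NT replicates on the left and *Uba1* siRNA replicates on the right. The *Uba1* block takes 51.1% to 52.4% of the NT bars and 11.1% to 28.4% of the *Uba1* siRNA bars.

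Gene by gene, 0 of the 9 E1 genes passed an adjusted p of 0.05 in limma, where 0.0260% of all genes tested did. With the replicate block 1 of the 9 passed (0.494% of all genes), and with voom on the recovered reads 1 of the 9 (0.173% of all genes), in each case *Uba1*. At an unadjusted p under 0.05, *Uba1* was lower (1.98% of all genes) and *Nae1* was higher (16.0% of all genes). These shares, 1844 genes higher and 228 lower, hold for TPM as deposited, and after median-ratio scaling 511 genes were higher and 712 lower at that p. The groups did not overlap for *Uba1* (1.01% of all genes lay lower without overlap), and for none of the 9 did all muscles with *Uba1* siRNAs lie above all NT muscles (10.6% of all genes).

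The log2FC of the 8 genes other than *Uba1* ran from 0.06 to 0.38 with a median of 0.15, and adjusted p from limma ran from 0.258 to 0.787. Of the 8 intervals, 7 include 0. The median log2FC of all genes tested was 0.11, and 81.8% of all genes were above 0, so 8 of 8 above 0 is to be read against that. Median-ratio scaling brought the all-gene median to 0.0016 with 50.7% of genes above 0. On that scale the median of the 8 was 0.07, and 5 of 8 were above 0, with *Uba2* (-0.04), *Uba3* (-0.05) and *Sae1* (-0.01) below it. For all 8 genes the highest of the 8 muscles was one with *Uba1* siRNAs, as for 82.3% of all genes, and for 5 of them it was *Uba1* siRNA replicate 1, as for 34.9% of all genes. After median-ratio scaling these were 7 of 8 genes and 51.8% of all genes.

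**Figure D3:**
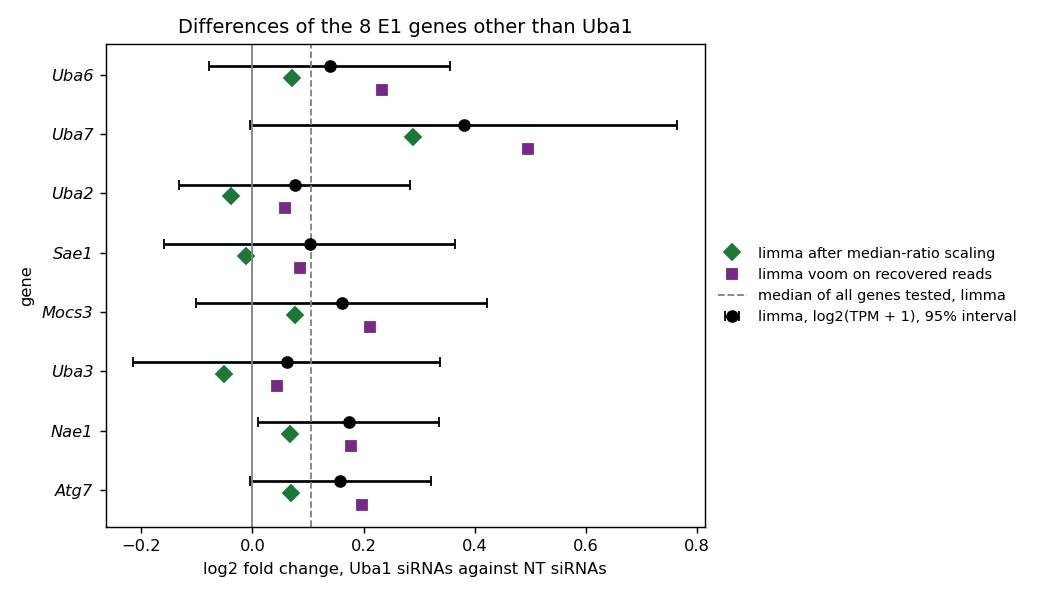
The log2FC (horizontal axis, *Uba1* siRNAs against NT siRNAs) of the 8 E1 genes other than *Uba1*, from limma on log2(TPM + 1) with its 95% interval (black), after median-ratio scaling (green) and from voom on recovered reads (purple), with 0 (solid line) and the median of all genes tested (dashed line). The black points run from 0.06 to 0.38, and the dashed line lies inside each of the 8 intervals.

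*Uba7* (chr9:107852704-107861262, plus strand), the E1 of the interferon-induced modifier ISG15, had the largest log2FC of the 8. It was at 2.90, 1.95, 2.32 and 1.77 TPM with NT siRNAs and at 3.23, 2.49, 4.74 and 2.58 TPM with *Uba1* siRNAs. *Uba1* siRNA replicate 3 was highest, and the groups overlapped because NT replicate 1 exceeded replicates 2 and 4 of the other group. *Uba7* was higher with *Uba1* siRNAs in 4 of 4 mice, as were 32.2% of all genes tested, with a log2FC of 0.38 (SE 0.171, 95% interval -0.0041 to 0.76, adjusted p = 0.282 from limma). With the replicate block the adjusted p from limma was 0.128, and the exact permutation test (two-sided) gave p = 0.114. Without *Uba1* siRNA replicate 3 the log2FC was 0.23, and after median-ratio scaling it was 0.29. The values rested on 172 to 459 reads.

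The other genes of the ISG15 pathway had differences of either sign. Of the 3 tested, 0 passed an adjusted p of 0.05 in limma, where 0.0260% of all genes tested did. *Isg15*, the modifier, was at 6.40, 5.24, 9.22 and 7.35 TPM with NT siRNAs and at 9.25, 3.55, 25.4 and 3.74 TPM with *Uba1* siRNAs. *Usp18*, which removes ISG15 from proteins, was at 1.39, 0.926, 1.96 and 1.36 TPM with NT siRNAs and at 2.04, 1.605, 5.23 and 1.56 TPM with *Uba1* siRNAs. In both groups replicate 3 was the highest muscle for these 2 genes. *Ube2l6*, the E2 of ISG15, was at 6.61 ± 2.26 and 5.79 ± 2.65 TPM (SD, n = 4 each), and *Herc6*, its ligase in mouse, was below 1 TPM in all muscles but *Uba1* siRNA replicate 3 (1.44 TPM) and was not tested. Over the 8 muscles, deviations of *Uba7* from its group means correlated with those of *Usp18* (Pearson's r = 0.83), *Isg15* (0.82), *Herc6* (0.71) and *Ube2l6* (0.65), a description of 8 muscles that share tissue and scaling.

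Markers of leukocytes, which also express *Uba7*, varied in the same muscles. Their sum over 10 genes ranged from 114 to 357 TPM with NT siRNAs and from 108 to 374 TPM with *Uba1* siRNAs, and replicate 3 was highest in both groups. The marker *Lyz2* gave most of the sum in each muscle. It gave 287 of the 357 TPM in NT replicate 3 and 304 of the 374 TPM in *Uba1* siRNA replicate 3. Of the 10 markers 6 had a higher mean with *Uba1* siRNAs, 7 passed the filter, and the T cell marker *Cd3e* was under 0.1 TPM in all 8 muscles. Over the 8 muscles, the deviations of *Uba7* correlated with those of the 10 markers at r from -0.48 for the B cell marker *Cd79a* to 0.78 for the macrophage receptor *Csf1r*, with 0.23 for *Cd3e* and 0.26 for the monocyte marker *Cd14*, and between 0.60 and 0.74 for the other 6. The part of leukocyte content in the *Uba7* values was not tested.

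**Figure D4:**
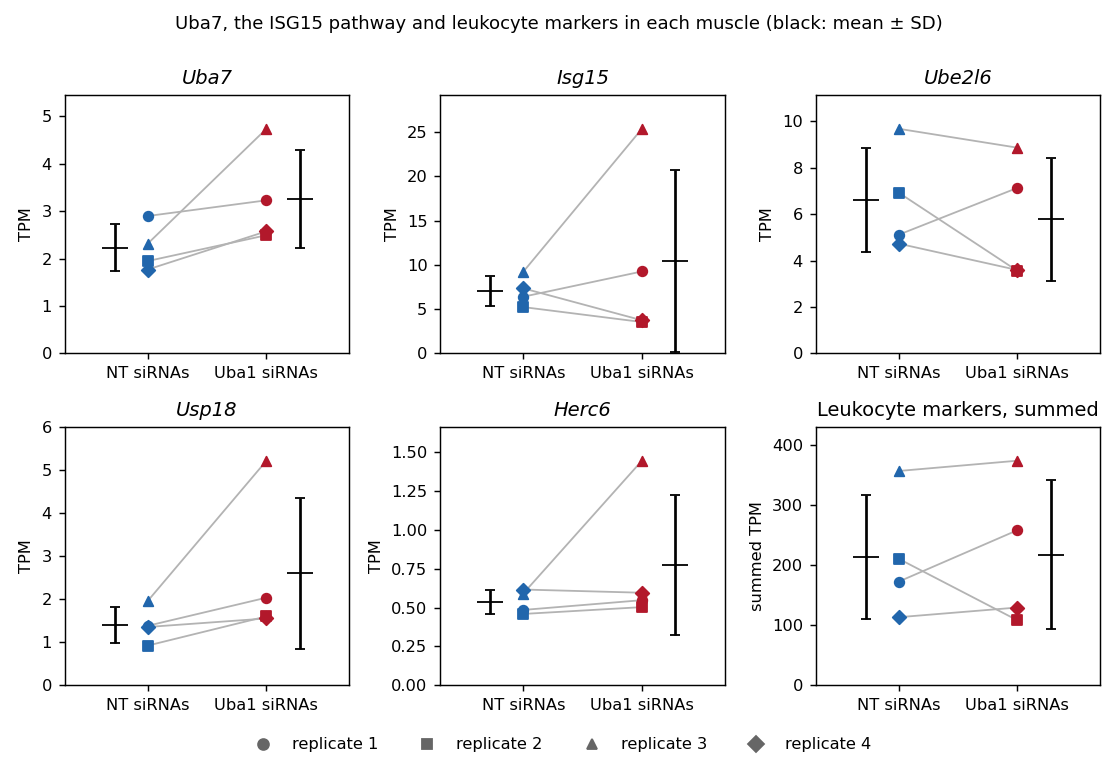
TPM (vertical axes, from 0) of *Uba7*, *Isg15*, *Ube2l6*, *Usp18* and *Herc6* and the summed TPM of 10 leukocyte markers in each muscle, NT siRNAs in blue and *Uba1* siRNAs in red, with lines joining the legs of a mouse and black bars for mean ± SD (n = 4). Replicate 3 (triangles) is the highest muscle with *Uba1* siRNAs in all 6 panels, at 4.74 TPM for *Uba7* and 374 TPM for the leukocyte sum. Of that sum *Lyz2* gave 304 TPM.

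*Uba7* is known as an interferon-stimulated gene, so the promoters were searched on both strands for AANNGAAA, the core that interferon regulatory factors bind. RefSeq promoters of build GRCm38.p6, from 250 bases before to 50 bases after the start, were at hand for 7 of the 9 genes, *Uba1* with several starts. AANNGAAA occurred in 3 of the 7 genes, *Uba7*, *Atg7* and *Mocs3*. These 7 genes have 9 promoters, and 23.9% of the 32851 promoters of that length hold AANNGAAA, a share counted per promoter and not per gene. In *Uba7* the match lies on the minus strand from 27 bases before the start. Its promoter is shown on the gene's strand (chr9:107975317-107975616), with the match in capitals, because *Uba7* had the largest log2FC of the 8 genes.
Uba7 promoter: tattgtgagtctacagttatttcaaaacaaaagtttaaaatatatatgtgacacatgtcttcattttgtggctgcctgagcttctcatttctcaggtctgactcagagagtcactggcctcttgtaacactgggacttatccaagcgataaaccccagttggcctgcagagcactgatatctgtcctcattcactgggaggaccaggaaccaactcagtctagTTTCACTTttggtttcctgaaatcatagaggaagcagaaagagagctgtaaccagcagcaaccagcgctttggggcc

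*Atg7* (chr6:114620044-114837576, plus strand), the E1-like enzyme of autophagy, was at 2.30, 2.28, 2.66 and 2.51 TPM with NT siRNAs and at 2.99, 2.89, 2.83 and 2.63 TPM with *Uba1* siRNAs. It was higher with *Uba1* siRNAs in 4 of 4 mice (32.2% of all genes tested were), and the groups overlapped by NT replicate 3 against *Uba1* siRNA replicate 4. The log2FC was 0.16 (SE 0.072, 95% interval -0.0047 to 0.32, adjusted p = 0.289 from limma), the exact permutation test (two-sided) gave p = 0.0571, and median-ratio scaling left a log2FC of 0.07.

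*Mocs3* (chr2:168072542-168074514, plus strand), which adenylates URM1 for tRNA thiolation and MOCS2A for molybdenum cofactor synthesis, was at 1.67, 2.03, 2.34 and 1.71 TPM with NT siRNAs and at 2.85, 2.20, 2.31 and 1.80 TPM with *Uba1* siRNAs. *Uba1* siRNA replicate 1 stood above the others, and the remaining 3 lay within the NT range. The log2FC was 0.16 (95% interval -0.10 to 0.42, adjusted p = 0.454 from limma). It was 0.083 without *Uba1* siRNA replicate 1 and 0.078 after median-ratio scaling. *Mocs3* rested on 49 to 83 reads per muscle, the fewest of the 9 genes, with a counting variation of 10.98% to 14.3%. The variation between muscles was 16.1% with NT siRNAs and 18.9% with *Uba1* siRNAs.

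The SUMO E1 is a pair, in which UBA2 carries the catalytic cysteine and SAE1 is the partner needed for adenylation. *Uba2* (chr7:33840113-33869024, minus strand) was at 14.8, 13.02, 13.8 and 15.8 TPM with NT siRNAs and at 15.5, 12.9, 16.1 and 16.5 TPM with *Uba1* siRNAs. *Sae1* (chr7:16054152-16121791, minus strand) was at 16.5, 17.1, 18.6 and 14.7 TPM with NT siRNAs and at 21.1, 15.3, 20.2 and 16.0 TPM with *Uba1* siRNAs. For both subunits the groups overlapped, with a log2FC of 0.08 for *Uba2* (95% interval -0.13 to 0.28, adjusted p = 0.654 from limma) and 0.10 for *Sae1* (-0.16 to 0.37, adjusted p = 0.632 from limma). Both signs turned after median-ratio scaling, as given above. Across the fits that omit 1 muscle, the log2FC ran from 0.033 (without NT replicate 2) to 0.15 (without *Uba1* siRNA replicate 2) for *Uba2*, and from 0.030 (without *Uba1* siRNA replicate 1) to 0.18 (without *Uba1* siRNA replicate 2) for *Sae1*.

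The balance of the SUMO E1 subunits differed between groups by less than the spread between muscles. The log2 ratio of *Uba2* to *Sae1* TPM averaged -0.22 ± 0.247 with NT siRNAs and -0.25 ± 0.208 with *Uba1* siRNAs (n = 4 each, SD; exact permutation test, two-sided, p = 0.8286, also after adjustment). In replicate 4 of both groups *Uba2* exceeded *Sae1*, and in the other 6 muscles *Sae1* exceeded *Uba2*. Leaving out NT replicate 4 or *Uba1* siRNA replicate 1 turned the sign of the difference, to 0.08 and 0.04.

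The NEDD8 E1 is likewise a pair, of the catalytic UBA3 and its partner NAE1. *Uba3* (chr6:97158848-97182727, minus strand) was at 11.7, 10.5, 13.7 and 12.6 TPM with NT siRNAs and at 15.2, 10.9, 14.1 and 10.9 TPM with *Uba1* siRNAs. *Nae1* (chr8:105237508-105261283, minus strand) was at 5.43, 5.796, 5.74 and 5.999 TPM with NT siRNAs and at 7.23, 5.96, 6.82 and 6.44 TPM with *Uba1* siRNAs. *Nae1* was higher with *Uba1* siRNAs in 4 of 4 mice (32.2% of all genes tested were), and the groups overlapped only by *Uba1* siRNA replicate 2 against NT replicate 4. *Uba3* was higher in 3 of 4 mice and overlapped more widely.

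The log2FC of *Nae1* was 0.17 (SE 0.073, 95% interval 0.0096 to 0.34), the only interval of the 8 that lies above 0, with an adjusted p of 0.258 from limma and of 0.209 with the replicate block. The exact permutation test (two-sided) of *Nae1* gave p = 0.0571, without adjustment for the 9 genes so tested, and median-ratio scaling left a log2FC of 0.07. For *Uba3* the log2FC was 0.06 (95% interval -0.21 to 0.34, adjusted p = 0.787 from limma), whose sign turned after median-ratio scaling and without NT replicate 2 or *Uba1* siRNA replicate 1. The log2 ratio of *Uba3* to *Nae1* TPM averaged 1.07 ± 0.165 with NT siRNAs and 0.94 ± 0.145 with *Uba1* siRNAs (n = 4 each, SD; exact permutation test, two-sided, p = 0.229, or 0.343 adjusted). It was lower with *Uba1* siRNAs in 3 of 4 mice.

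Among NT muscles the order of levels per gene length was *Uba1* (60.6 TPM), *Sae1* (16.7), *Uba2* (14.4), *Uba3* (12.1), *Nae1* (5.74), *Atg7* (2.44), *Uba7* (2.23), *Mocs3* (1.94) and *Uba6* (1.23 TPM, or 2.03% of *Uba1*). Neighbours whose NT ranges overlap are *Sae1* with *Uba2*, *Uba2* with *Uba3*, *Atg7* with *Uba7*, and *Uba7* with *Mocs3*. Within the same muscle, *Uba2* was above *Uba3* in 4 of 4 NT muscles, *Sae1* above *Uba2* and *Atg7* above *Uba7* in 3 of 4, and *Uba7* above *Mocs3* in 2 of 4. The order depends on the length by which reads are divided. The steps of the TPM give a length of 8201 bases for *Nae1*, against 1970 in its canonical transcript, 6033 against 2591 for *Uba2* and 2597 against 1946 for *Sae1*. With canonical lengths the order became *Uba1*, *Uba2*, *Nae1*, *Sae1*, *Uba3*, *Uba7*, *Atg7*, *Mocs3* and *Uba6*. The ratio of *Uba3* to *Nae1* with NT siRNAs then was 0.726 ± 0.0812 in place of 2.11 ± 0.236, and that of *Uba2* to *Sae1* 1.52 ± 0.268 in place of 0.869 ± 0.154 (SD, n = 4). Which subunit of either pair is more abundant thus cannot be read from these TPM, while *Uba1* stays first and *Uba6* last by both lengths.

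The genes that act after each E1 were looked at as lists, and 0 genes of these lists passed an adjusted p of 0.05, with limma as with the block or with voom. Of all genes tested, 0.0260% passed with limma, 0.494% with the block and 0.173% with voom. Of 3 ubiquitin-encoding genes looked at, 1 had a log2FC above 0 and the list median was -0.0030, against 0.11 for all genes. *Ubb*, a polyubiquitin gene, was at 979 ± 89.2 TPM with NT siRNAs and 1050 ± 32.5 TPM with *Uba1* siRNAs (log2FC 0.11; SD, n = 4 each). *Rps27a*, which encodes ubiquitin fused to a ribosomal protein, was at 134 ± 11.6 and 135 ± 23.9 TPM (log2FC -0.0093). Of 26 ubiquitin E2 genes 25 were tested, with a median log2FC of 0.11, 6 higher and 0 lower at an unadjusted p under 0.05, where 16.0% of all genes were higher and 1.98% lower. The largest values among them were those of *Ube2q2* (log2FC 0.28, adjusted p = 0.162 from limma) and *Ube2q1* (0.24, adjusted p = 0.169 from limma), both higher in 4 of 4 mice, as were 32.2% of all genes tested. *Ube2z*, the E2 that works with UBA6, had a log2FC of 0.14 and *Birc6*, a large E2 and E3 hybrid fed by UBA6, of 0.19, while *Ubd*, which encodes FAT10, was listed at 0 in 6 muscles and at 0.204 TPM or less in the other 2.

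Of the SUMO pathway all 16 genes were tested, 3 were higher and 0 lower at an unadjusted p under 0.05 (16.0% and 1.98% of all genes), and the median log2FC was 0.12. The SUMO ligases *Pias3* and *Pias4* had the largest values, 0.25 and 0.24. The NEDD8 pathway had 11 genes with a median of 0.08, of which 2 were higher and 1 lower at that p (16.0% and 1.98% of all genes). The one lower was *Dcun1d3*, a DCN1-like factor of NEDD8 ligation to cullins, at 3.95, 3.81, 3.76 and 3.56 TPM with NT siRNAs and at 3.38, 2.58, 2.97 and 2.67 TPM with *Uba1* siRNAs. All muscles with *Uba1* siRNAs lay below all NT muscles for *Dcun1d3*, as for 1.01% of all genes (log2FC -0.29, SE 0.082), but the adjusted p from limma was 0.166, and 0.0983 with the block. Its relatives *Dcun1d2*, *Dcun1d4* and *Dcun1d5* had log2FC of 0.08, 0.19 and 0.14. For these, all muscles with *Uba1* siRNAs lay above all NT muscles, as for 10.6% of all genes, while *Dcun1d1* overlapped.

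Among 14 genes of ATG8 and ATG12 conjugation 1 was higher and 0 lower at an unadjusted p under 0.05 (16.0% and 1.98% of all genes), and the median log2FC was 0.09, with 0.14 for *Atg3*, the E2-like enzyme that takes ATG8 proteins from ATG7, and 0.14 for the protease *Atg4d*. Of the 7 genes of URM1 and the molybdenum cofactor, 2 were higher and 0 lower at that p, against the same shares of all genes, with a median of 0.10. *Mocs1*, which acts at the first step of cofactor synthesis, was at 8.03 ± 1.03 TPM with NT siRNAs and 10.1 ± 0.903 TPM with *Uba1* siRNAs (log2FC 0.30, adjusted p from limma 0.182). *Ctu1*, which thiolates tRNA with sulfur from URM1, was at 1.12 ± 0.164 and 1.57 ± 0.264 TPM (log2FC 0.27, adjusted p from limma 0.225). After median-ratio scaling the list medians ran from -0.12 for the ubiquitin genes to 0.06 for the partners of UBA6.

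**Figure D5:**
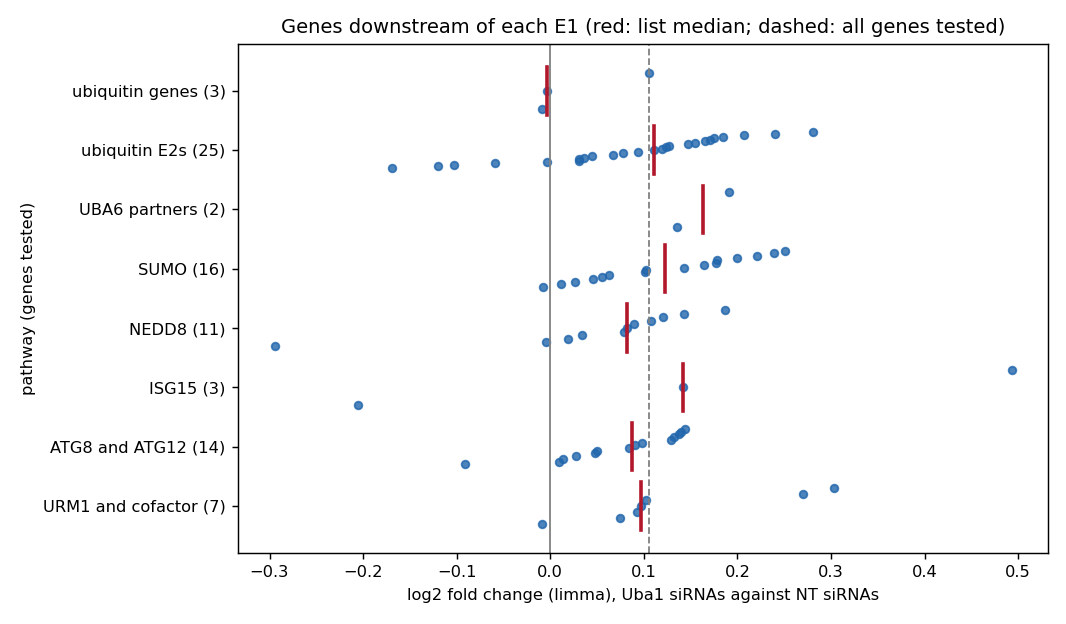
The log2FC from limma (horizontal axis, *Uba1* siRNAs against NT siRNAs) of each tested gene in 8 lists of genes that act with or after the E1 enzymes, with list medians in red, 0 as a solid line and the median of all genes tested as a dashed line. List medians lie between -0.0030 and 0.16, and *Dcun1d3* at -0.29 and *Usp18* at 0.49 are the outermost points.

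The 5 genes whose pattern was most like that of *Uba1*, by Pearson's r of log2(TPM + 1) over the 8 muscles, were *Ppp1r18* (r = 0.98), the NF-kB subunit *Rela* (0.98), *Bcl3* of the IkB family (0.98), the chemokine *Ccl2* (0.97) and *Cep20* (0.97). These values are a description, since the points share 8 libraries and fall into the 2 groups of the design. All 5 were lowest in *Uba1* siRNA replicate 2, the muscle with the least *Uba1*. *Ppp1r18* was at 12.7, 12.5, 12.6 and 11.8 TPM with NT siRNAs and at 7.47, 6.73, 7.99 and 9.07 TPM with *Uba1* siRNAs, and *Rela* at 18.1, 18.4, 17.9 and 18.2 TPM and at 14.03, 13.3, 14.7 and 15.6 TPM. Among muscles with *Uba1* siRNAs, replicate 4 was highest for *Ppp1r18*, *Rela* and *Ccl2*, as for *Uba1*, and replicate 1 for *Bcl3* and *Cep20*, a likeness that the choice of these genes builds in. None of the other 8 E1 genes was among these 5.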

How the data were processed

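RNA-seq libraries of 8 muscles were analyzed. The authors used CLC Genomics Workbench to map trimmed paired-end reads to the GRCm39 genome, and the deposited values are TPM per gene. The annotation and the treatment of multi-mapping reads are not given in the sources used here, nor whether 1 read means a read or a pair. Groups and replicate numbers came from the sample descriptions, and the titles give the same groups. The E1 genes and all lists were chosen with earlier results of these data known.

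Genes that reached 1 TPM in 4 or more of the 8 muscles were tested with limma 3.58.1 (R 4.3.3; lmFit, eBayes with trend) on log2(TPM + 1), which understates changes of low genes, unpaired, with Benjamini-Hochberg adjustment over all genes. The study's Kruskal-Wallis test was an alternative. Values of 1 gene or ratio were compared by exact permutation. The limma fit was checked on simulated data with independent noise. The shifts set there were larger than the log2FC of the 8 other E1 genes, and none was shared by most genes. The check therefore does not cover differences of the size seen for those 8. Genes named were all E1 genes, *Uba1y*, per pathway list those past the threshold or else the 2 with the largest absolute log2FC, and the 5 most like *Uba1*. Others (*Isg15*, *Herc6*, *Ubd*, *Csf1r*, *Cd79a*, *Cd14*, *Cd3e*, *Lyz2*, *Dcun1d1*, *Dcun1d2*, *Dcun1d5* and the 10 muscle fibre markers) were named after their values were seen. Some genes of these lists are not reported here.

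Reads were recovered from the TPM steps, with 1 read in a gene of 1000 bases worth 0.0634 to 0.0691 TPM. Same-numbered muscles come from the same mouse by labels and methods. Correlations of their deviations from the group means were -0.00037, 0.20, 0.58 and 0.54 for replicates 1 to 4. Alternatives were another pseudocount (0.1 TPM), no filter, a filter on a mean of 5 TPM, scaling by median ratios, quantile normalization, TPM without mitochondrial genes, the block, the block with median-ratio scaling and leaving out each muscle. Voom on recovered reads and canonical transcript lengths were chosen after seeing the data. Promoters are of RefSeq build GRCm38.p6 and other positions of GRCm39. Protein sequences were not used here. Counting variation covers counting error only.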

Additional observations from a re-analysis of the deposited data

How the results depend on the processing

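*Uba1* was lower under all 19 alternatives and passed the adjusted p in 10 of them. Its log2FC was -1.98 where the filter was a mean of 5 TPM, -2.09 after median-ratio scaling, -2.06 after quantile normalization, -1.996 without mitochondrial genes, -1.98 with the replicate block, -2.09 with the block and median-ratio scaling, -2.08 with voom and -2.06 with voom and the block, and in each of these 8 it was the 1 E1 gene past the threshold. With each muscle left out it ran from -2.18 to -1.64, with 0 to 1 E1 genes past the threshold. The number of all genes past it, 3 as reported, was 11, 23, 28, 14, 57, 76, 20 and 105 under the same 8 settings in that order, 2 to 39 with each muscle left out (39 without *Uba1* siRNA replicate 4), and 0 with the Kruskal-Wallis test (2210 genes at an unadjusted p under 0.05). The replicate block, which pairs the legs of a mouse, changed the call of no E1 gene other than *Uba1*. The exact test over 4 pairs cannot go below 0.125.

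Signs turned for *Uba2* (-0.038 after median-ratio scaling, both without and with the replicate block, and -0.017 after quantile normalization), *Uba3* (-0.052, -0.032, and -0.020 to 0.13 with each muscle left out, where -0.00080 was without NT replicate 2) and *Sae1* (-0.012 after median-ratio scaling, both without and with the block). The difference in the log2 ratio of *Uba2* to *Sae1* ran from -0.12 to 0.080 with each muscle left out, that of *Uba3* to *Nae1* from -0.21 to -0.07. The cause of these turns was not tested. Over all alternatives, the log2FC ran from 0.045 to 0.23 for *Uba6*, 0.23 to 0.50 for *Uba7*, 0.061 to 0.22 for *Nae1*, 0.040 to 0.21 for *Atg7* and 0.046 to 0.24 for *Mocs3*, lowest with quantile normalization for all but *Uba7*. With a muscle left out, no exact permutation test can go below p = 0.0571. The number of muscles limits what can be seen for the 8 other E1 genes, whose intervals reach up to 0.76 (log2).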
